A study of Mus musculus with 4 samples.

Results

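S phase and mitosis genes are the genes a cell needs to copy its DNA and to divide. Here 47 of them were chosen by name, 25 for replication and 22 for mitosis, with earlier results of these data known. All 47 were found among the 17300 genes of the table, and all 47 lay far enough above its lowest value to enter the test. In KO against WT dendritic cells 5 rose, 0 fell and 42 did not pass the test, and the difference was above 0 in 41 of the 47. Over all 11864 tested genes 6.93% were called, 4.69% as higher in KO, and 49.6% had a difference above 0. Those that rose were the replication genes Ccne1, Cdt1, Lig1 and Rfc4 and the proliferation marker Mki67, with 1.42-fold to 1.82-fold more counts in KO. The median difference was nearly the same for both classes, 0.21 for replication and 0.20 for mitosis on the log2 scale. Without the KO library called KO B these medians were 0.21 and 0.12. The share called was 16% for replication and 4.55% for mitosis. KO lay above WT without overlap in 72% and 54.5%, against 28.1% of all tested genes. Further genes, not among the 47, had medians of 0.06 for replication (n = 38) and 0.17 for mitosis (n = 55).

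The RNA came from dendritic cells sorted by flow cytometry from mouse spleen, a cell type that shows antigen to T cells. There were 2 KO libraries, called KO A and KO B, and 2 WT libraries, called WT 1 and WT 2. The series title concerns Siglec-E, an inhibitory sialic acid receptor of myeloid cells, in transplant rejection. The labels give genotype as KO or WT, with no deleted gene spelled out and no age, sex or treatment. The KO titles and the KO columns read EKO. Every column name begins with Allo, a word the sources used here do not explain. The labels do not name the animals behind the libraries, so p-values speak only of the spread among these 4 libraries. In the WT pair that spread may be technical. The KO libraries differed in Y-linked RNA, as given below.

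A cell enters S phase when cyclin E with its kinase frees E2F factors from the retinoblastoma proteins, and E2F then switches on the replication genes. The MCM helicase is loaded on origins by CDC6 and CDT1 in G1 and is activated with CDC45 and the GINS complex. The mitosis genes peak later, in G2 and M, and are controlled through a short promoter element, the CHR, that is bound by the DREAM and MuvB complexes, often beside CCAAT boxes bound by NF-Y. Mature splenic dendritic cells are short-lived and mostly non-dividing, while their precursors still divide in the spleen.

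These promoter elements were looked up in the RefSeq windows of 300 bases, 250 before and 50 after each annotated start (build GRCm38.p6). Of the 47 genes, 40 matched a window by symbol, 21 for replication and 19 for mitosis, with 45 windows in all. The entries not matched were Mcm4, Gins1, Gins2, Ccne2, Ccna2, Aurkb and Tpx2. The E2F core was searched for as TTCCCGC, the related spelling TTCGCGC, the further variant TTGGCGC and the last variant TTGCCGC. The CHR element was searched for as TTTGAA or as its variant TTCGAA. The box bound by NF-Y was searched for as CCAAT. All were searched on both strands. Matches of the E2F core on opposite strands can overlap, as they do in Mcm6.

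The classes differed in what their promoters held. An E2F core was present in 14 of 21 replication genes (66.7%), 3 of 19 mitosis genes (15.8%) and 10.9% of all 27025 genes with a window. A CHR element was present in 4 of 21 replication genes (19%), 14 of 19 mitosis genes (73.7%) and 21.7% of all genes. All 14 of those mitosis genes also held a CCAAT box, a pairing found in 3 of 21 replication genes and in 8.61% of all genes. A CCAAT box alone was common everywhere, in 61.9% of replication genes, 84.2% of mitosis genes and 41.1% of all genes. Counted per window rather than per gene, the E2F core was in 65.4% of replication windows, 15.8% of mitosis windows and 9.57% of all windows.

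**Figure D1:**
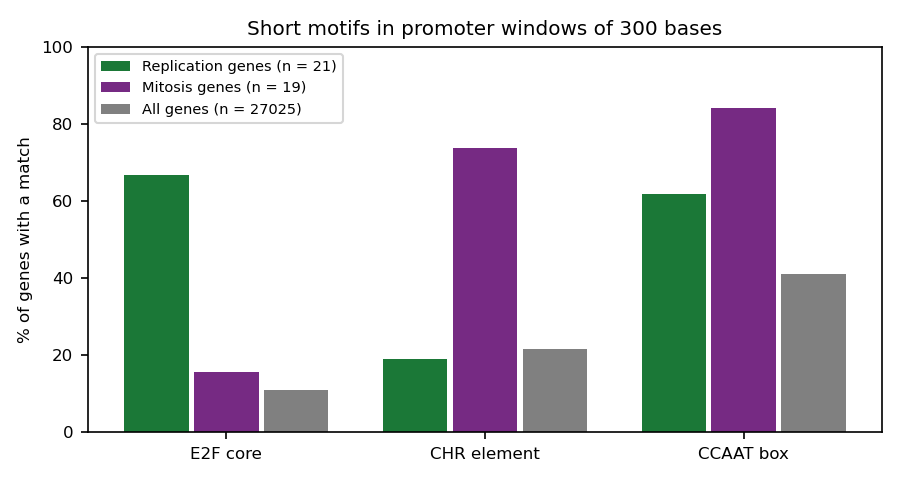
Percent of genes with at least 1 match to each motif in their promoter windows, for replication genes (green, n = 21), mitosis genes (purple, n = 19) and all genes with a window (grey, n = 27025). The E2F core stands at 66.7% in replication genes against 15.8% in mitosis genes, and the CHR element at 19% against 73.7%.

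Shown here are the windows of 3 of the replication genes that rose (Cdt1, Rfc4 and Lig1), of Mki67, and of Mcm6 and Ccnb2 as clear cases of each class. Ccne1, which also rose, held none of the motifs in its window. Capitals mark every match to the E2F core, the CHR element or the CCAAT box, on either strand, and each sequence is written 5′ to 3′ along its gene. For Lig1, the only gene shown with several windows, the one with most matches is given. The positions in GRCm38.p6 are chr8:122567765-122568064, plus strand for Cdt1; chr16:23127681-23127980, minus strand for Rfc4; chr7:13278576-13278875, plus strand for Lig1; chr1:128359656-128359955, minus strand for Mcm6. Those of the mitosis genes are chr7:135716330-135716629, minus strand for Mki67 and chr9:70421505-70421804, minus strand for Ccnb2.
Cdt1: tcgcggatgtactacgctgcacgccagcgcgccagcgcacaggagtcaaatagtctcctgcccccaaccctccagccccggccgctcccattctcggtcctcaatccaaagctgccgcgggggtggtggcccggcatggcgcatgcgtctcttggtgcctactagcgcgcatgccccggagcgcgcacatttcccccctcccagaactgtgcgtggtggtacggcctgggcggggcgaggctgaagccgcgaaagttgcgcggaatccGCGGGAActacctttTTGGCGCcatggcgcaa
Rfc4: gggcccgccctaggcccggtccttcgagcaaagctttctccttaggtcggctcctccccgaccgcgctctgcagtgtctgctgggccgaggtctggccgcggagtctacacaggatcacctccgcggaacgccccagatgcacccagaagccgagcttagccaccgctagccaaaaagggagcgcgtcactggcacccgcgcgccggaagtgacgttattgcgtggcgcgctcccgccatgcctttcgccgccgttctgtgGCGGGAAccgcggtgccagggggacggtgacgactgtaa
Lig1: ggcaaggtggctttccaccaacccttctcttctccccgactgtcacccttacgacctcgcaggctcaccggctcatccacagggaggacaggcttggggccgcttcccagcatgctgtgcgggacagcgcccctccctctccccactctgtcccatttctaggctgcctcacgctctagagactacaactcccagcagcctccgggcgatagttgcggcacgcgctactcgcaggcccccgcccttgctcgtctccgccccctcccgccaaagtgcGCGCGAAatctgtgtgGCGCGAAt
Mcm6: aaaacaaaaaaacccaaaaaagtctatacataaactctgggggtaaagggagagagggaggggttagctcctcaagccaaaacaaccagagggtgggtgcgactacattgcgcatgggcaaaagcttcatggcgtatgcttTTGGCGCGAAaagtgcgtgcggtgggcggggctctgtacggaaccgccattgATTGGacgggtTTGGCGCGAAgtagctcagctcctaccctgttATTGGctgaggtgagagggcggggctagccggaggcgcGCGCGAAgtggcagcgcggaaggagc
Mki67: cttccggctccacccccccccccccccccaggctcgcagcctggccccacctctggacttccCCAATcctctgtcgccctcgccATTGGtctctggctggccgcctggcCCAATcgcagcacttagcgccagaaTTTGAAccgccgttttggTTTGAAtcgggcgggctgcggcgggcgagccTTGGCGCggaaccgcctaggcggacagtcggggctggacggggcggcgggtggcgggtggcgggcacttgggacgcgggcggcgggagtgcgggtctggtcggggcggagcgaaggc
Ccnb2: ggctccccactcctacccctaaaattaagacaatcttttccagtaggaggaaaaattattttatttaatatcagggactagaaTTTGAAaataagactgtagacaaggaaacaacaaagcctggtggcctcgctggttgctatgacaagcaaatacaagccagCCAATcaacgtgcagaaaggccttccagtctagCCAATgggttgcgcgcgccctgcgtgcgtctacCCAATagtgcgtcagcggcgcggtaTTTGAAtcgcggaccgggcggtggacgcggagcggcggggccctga

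In these windows Cdt1, Rfc4 and Lig1 hold E2F cores just after the start and neither a CHR element nor a CCAAT box. Mki67 holds all 3 kinds of element, with 1 E2F core, 2 CHR elements and 3 CCAAT boxes. Ccnb2 holds 2 CHR elements and 3 CCAAT boxes and no E2F core.

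The 4 libraries held between 29002408 and 30952251 back-transformed counts, sums that come after the authors' scaling and do not give the depth in reads. Siglece, the gene of Siglec-E, had 101 and 111 counts in KO against 859 and 666 in WT, a fall by 1.32 (SE 0.107; adjusted p = 0.0138, limma). All 17 pan dendritic cell markers passed the filter on low values; 10 fell and 0 rose in KO, with a median difference of -0.49. KO A stood apart in Y-linked RNA, with 64.5 counts of Ddx3y against 3979 in KO B, and 3102 and 3500 in WT. The labels give no sex, and the part of sex in the KO against WT differences was not tested. In bulk RNA, fewer cells of a type and less RNA per cell cannot be told apart.

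Genes were called at an adjusted p under 0.05 in a limma fit over all 11864 tested genes. Among these, 6.93% were called in either direction and 4.69% were called higher in KO. Of the 47 genes, 10.6% were called, all higher, which is 5 genes. For replication the share was 16% (4 of 25 higher, 0 lower, 21 not past the threshold) and for mitosis 4.55% (1 of 22 higher, 0 lower, 21 not past the threshold), near the background. The difference was above 0 for 41 of the 47, 23 of 25 for replication and 18 of 22 for mitosis, and for 49.6% of all tested genes. An unadjusted p under 0.05 was reached by 13 replication genes (52%), 6 mitosis genes (27.3%) and 24.7% of all tested genes. The mitosis share was thus near the background.

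Both KO libraries lay above both WT libraries in 30 of the 47 genes (63.8%), against 28.1% of all tested genes. Both KO libraries lay below in 0 of the 47, against 28.2% of all tested genes. By class, 18 of 25 replication genes (72%) and 12 of 22 mitosis genes (54.5%) had KO above WT without overlap. Within the groups, KO B exceeded KO A in 39 of the 47 genes and WT 2 exceeded WT 1 in 37. The libraries ran in the order WT 1, WT 2, KO A, KO B from lowest to highest in 21 of the 47 genes, against 9.68% of all tested genes. That order was chosen after the values were seen.

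**Figure D2:**
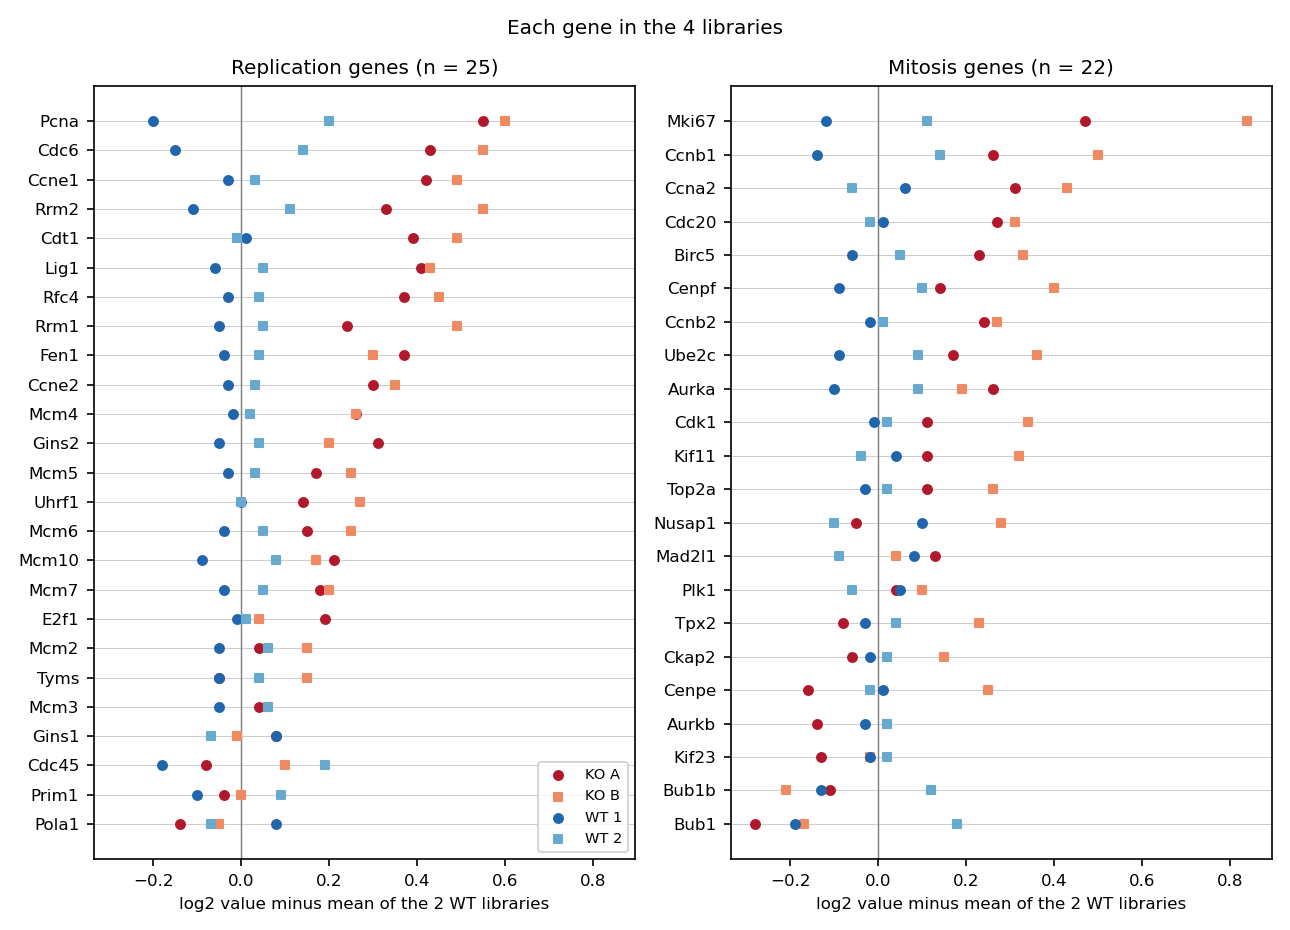
Log2 value of each gene in KO A and KO B (reds) and WT 1 and WT 2 (blues), minus the mean of the WT libraries, with 1 row per gene, replication on the left and mitosis on the right, sorted by the KO minus WT difference. Both red points lie right of both blue points in 18 of 25 replication genes and 12 of 22 mitosis genes.

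Cdt1 and Cdc6 load the helicase on origins. Cdt1 had log2 values of 10.49 and 10.59 in KO A and KO B against 10.11 and 10.09 in WT 1 and WT 2. This was a rise of 0.44 with an SE of 0.0898 and an adjusted p of 0.0415, or 1.59-fold in counts. Cdc6 had 10.38 and 10.50 in KO against 9.80 and 10.09 in WT, a larger difference of 0.49 that did not pass (adjusted p = 0.0612). In counts Cdc6 stood at 862 and 969 in KO, against 445 and 627 in WT. In both genes the KO libraries lay above the WT libraries.

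None of the 6 subunits of the helicase ring passed the test. Mcm4 differed by 0.26 (95% interval 0.07 to 0.45, adjusted p = 0.108) and Mcm5 by 0.21 (0.01 to 0.41, adjusted p = 0.181). Mcm6 and Mcm7 differed by 0.20 and 0.19, also with KO above WT in all libraries. Mcm2 and Mcm3 differed by 0.09 and 0.05, and their groups overlapped. The median of these 6 subunits was 0.19, and 2 of the 6 had an unadjusted p under 0.05, against 24.7% of all tested genes. The subunits work in equal numbers in 1 ring.

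The factors that activate the helicase gave the lowest median of the replication roles, 0.11. Gins2 differed by 0.26 (adjusted p = 0.150) and Mcm10, which helps to open the loaded helicase, by 0.19 (adjusted p = 0.289). Gins1 and Cdc45 differed by 0.03 and 0.01, with overlapping groups. For Cdc45, KO A and KO B were at 12.15 and 12.33, against 12.05 and 12.42 in WT 1 and WT 2, so both KO values fell between the WT values. Its 95% interval, -0.32 to 0.34, leaves room for a change in either direction.

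At the replication fork 2 of 6 genes rose and 4 did not pass. Lig1, the ligase that joins Okazaki fragments, had 11.71 and 11.73 in KO against 11.24 and 11.35 in WT. Its rise of 0.43 had an SE of 0.0845 and an adjusted p of 0.0389, and its counts were 1.42-fold higher. Rfc4, a subunit of the clamp loader, had 9.76 and 9.84 in KO against 9.36 and 9.43 in WT. Its rise of 0.41 had an SE of 0.0887 and an adjusted p of 0.0475, and its counts were 1.78-fold higher.

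Pcna, the sliding clamp, differed more than Lig1 and Rfc4 on the log2 scale but missed the threshold. It was at 12.00 and 12.05 in KO against 11.25 and 11.65 in WT, or 0.58 more, with an SE of 0.136 and an adjusted p of 0.0567. The KO libraries lay close together and the WT libraries apart, at 3602 and 3733 counts in KO against 1939 and 2714 in WT. In counts Pcna was 1.58-fold higher in KO, less than the 1.78-fold of Rfc4. Fen1, the flap nuclease that trims Okazaki fragments, differed by 0.33 (adjusted p = 0.0738). Pola1 and Prim1, the polymerase and primase catalytic subunits of the polymerase alpha-primase complex, differed by -0.10 (95% interval -0.32 to 0.13) and -0.02 (-0.26 to 0.22). Their KO and WT libraries overlapped.

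Of the genes that supply deoxynucleotides, the ribonucleotide reductase subunits were higher in both KO libraries, without passing the test. Rrm2, the subunit made in S phase, had 11.13 and 11.35 in KO against 10.69 and 10.91 in WT, a difference of 0.44 (adjusted p = 0.0783). Rrm1 had 11.88 and 12.13 in KO against 11.59 and 11.69 in WT, a difference of 0.37 (adjusted p = 0.0945). In both, KO B was the highest library. Tyms, the thymidylate synthase, differed by 0.05 (95% interval -0.19 to 0.30) with overlapping groups.

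The cyclin E genes start S phase. Ccne1 had 520 and 564 counts in KO, against 285 and 312 in WT. On the log2 scale it rose by 0.45 (adjusted p = 0.0381), which is 1.82-fold in counts. Ccne2 had 9.90 and 9.95 in KO against 9.57 and 9.63 in WT, a difference of 0.33 (adjusted p = 0.0786). For both cyclin E genes each group was tight and the groups stood clear of each other. Uhrf1, which keeps DNA methylation in step with replication, differed by 0.21 (adjusted p = 0.204), and E2f1 itself by 0.12 (95% interval -0.11 to 0.35), both with KO above WT.

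**Figure D3:**
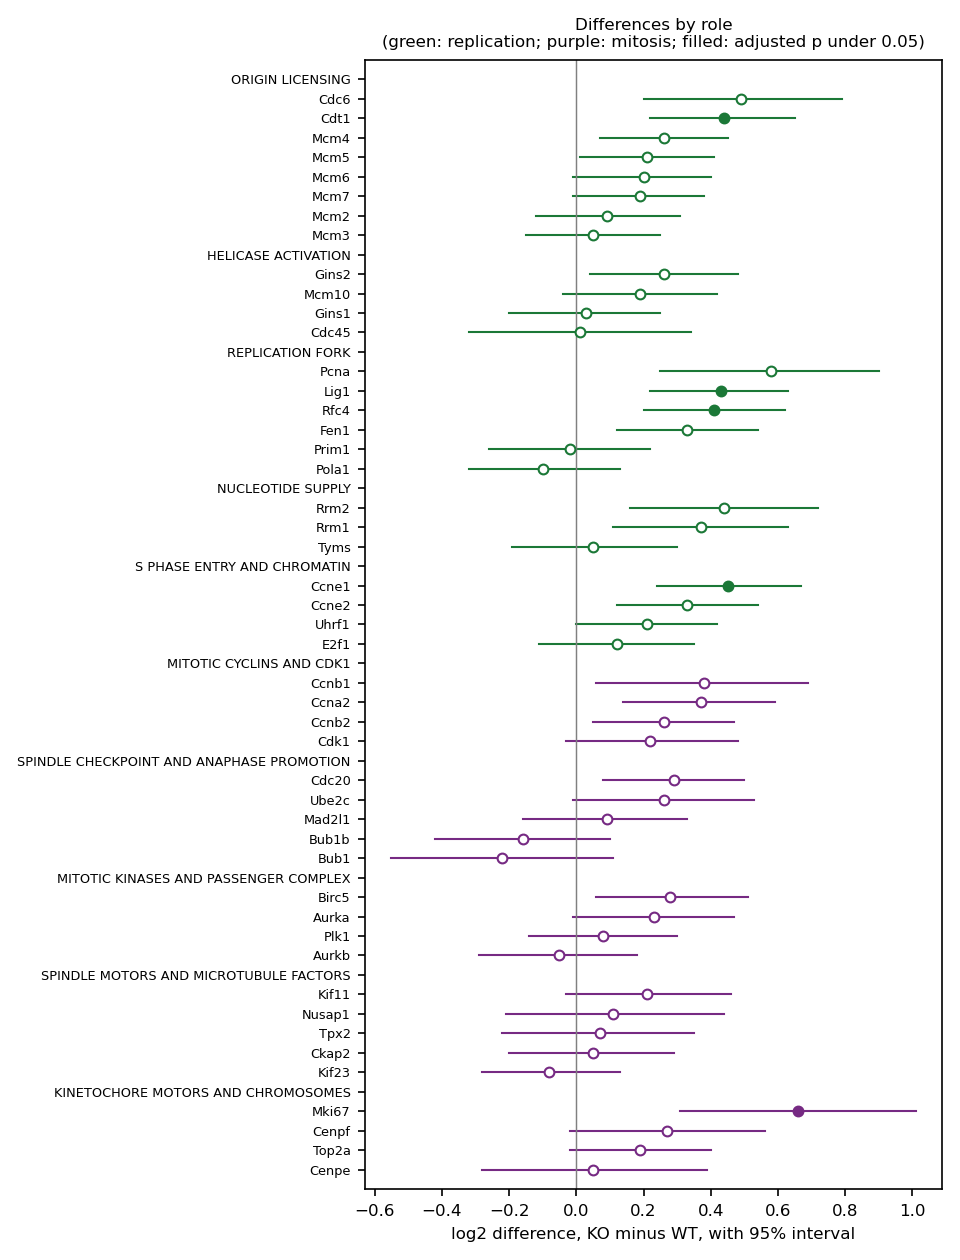
Log2 difference, KO minus WT, of each gene (points) with its 95% interval from limma (lines), grouped by role, with replication in green and mitosis in purple. Filled points mark the 5 genes with an adjusted p under 0.05: Cdt1, Lig1, Rfc4, Ccne1 and Mki67.

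Mki67, the gene of the proliferation antigen Ki-67 that coats mitotic chromosomes, differed most of the 47 on the deposited log2 scale. It was at 14.90 and 15.27 in KO against 14.31 and 14.54 in WT, and rose by 0.66 (SE 0.144, adjusted p = 0.0482). In counts it stood at 30132 and 39064 in KO against 19835 and 23382 in WT, 1.60-fold more. The ratio of counts was higher for Ccne1 (1.82-fold), Rfc4 (1.78-fold) and Cdc6 (1.71-fold). Mki67 alone made up 47.4% and 50.4% of mitosis counts in the KO pair, against 39.1% and 41.8% in the WT pair. Counts grow with transcript length, so this share is not a share of molecules. Top2a, the topoisomerase that untangles chromosomes, was at 13.15 and 13.30 in KO against 13.01 and 13.06 in WT, a difference of 0.19 (adjusted p = 0.238).

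In all 4 genes of the mitotic cyclins and their kinase KO lay above WT, with a median of 0.31, and 0 passed. Of all tested genes 28.1% had KO above WT. An unadjusted p under 0.05 was reached by 3 of the 4, against 27.3% of the 22 mitosis members and 24.7% of all tested genes. Ccna2, the cyclin of late S phase and G2, had 11.11 and 11.23 in KO against 10.86 and 10.74 in WT, a difference of 0.37 (adjusted p = 0.0681). Ccnb1 had 10.18 and 10.42 in KO against 9.78 and 10.06 in WT, a difference of 0.38 (adjusted p = 0.146). Ccnb2 differed by 0.26 (adjusted p = 0.128) and Cdk1, the kinase they activate, by 0.22 (adjusted p = 0.254).

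The spindle checkpoint delays anaphase by holding back the anaphase-promoting complex. Of 5 genes of this role 0 passed, and 1 had an unadjusted p under 0.05, against 24.7% of all tested genes. Bub1 was at 9.67 and 9.78 in KO against 9.76 and 10.13 in WT, a difference of -0.22 (95% interval -0.55 to 0.11, adjusted p = 0.379). Bub1b was at 11.32 and 11.22 in KO against 11.30 and 11.55 in WT, a difference of -0.16 (-0.42 to 0.10, adjusted p = 0.422). Both are checkpoint kinase family proteins, and in both WT 2 was the highest library while the groups overlapped. Mad2l1, another checkpoint protein, differed by 0.09 with overlapping groups. Cdc20, which the checkpoint inhibits, differed by 0.29 (adjusted p = 0.101) and Ube2c, the ubiquitin-conjugating enzyme of the same complex, by 0.26 (adjusted p = 0.218), both with KO above WT.

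Among the mitotic kinases and the passenger complex, Birc5, or survivin, differed by 0.28 (adjusted p = 0.123) and Aurka, the spindle pole kinase, by 0.23 (adjusted p = 0.227). Plk1 and Aurkb differed by 0.08 and -0.05, with overlapping groups. Spindle motors and microtubule factors had the lowest median of the mitosis roles, 0.07. Kif11, the motor that separates the poles, differed by 0.21 (adjusted p = 0.254) with KO above WT. Nusap1, Tpx2 and Ckap2 differed by 0.11, 0.07 and 0.05, and Kif23, a motor of cytokinesis, by -0.08. In these 4 genes the groups overlapped. Of the kinetochore proteins, Cenpf differed by 0.27 (adjusted p = 0.227) with KO above WT, and Cenpe by 0.05, with KO A lowest and KO B highest of the 4 libraries.

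Replication was then compared with mitosis inside each library. The mean log2 value of the replication genes minus that of the mitosis genes was 0.09 (KO A) and 0.00 (KO B) in the KO pair, against -0.05 (WT 1) and -0.02 (WT 2) in the WT pair. The mean difference between KO and WT was 0.08 larger for replication, beside a pooled SD between replicates of 0.0509. No p is given for a score over these genes, which were chosen with results known. Set against the WT mean, KO A had a median of 0.21 over replication and 0.12 over mitosis genes. KO B had 0.25 over replication and 0.27 over mitosis genes, and the median of KO B minus KO A was 0.15 over mitosis and 0.07 over replication genes. That difference between classes was not tested.

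In summed counts the replication genes held 0.156% and 0.171% of KO A and KO B, against 0.135% and 0.148% of WT 1 and WT 2. The mitosis genes held 0.205% and 0.256% of KO, against 0.175% and 0.190% of WT. The mean share was 1.15-fold higher in KO for replication and 1.26-fold higher for mitosis. Without Mki67 the mitosis genes held 0.108% and 0.127% of KO, against 0.107% and 0.111% of WT, which is 1.08-fold. The mitosis sum without that gene shifted less than the replication sum, from which no gene was left out.

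**Figure D4:**
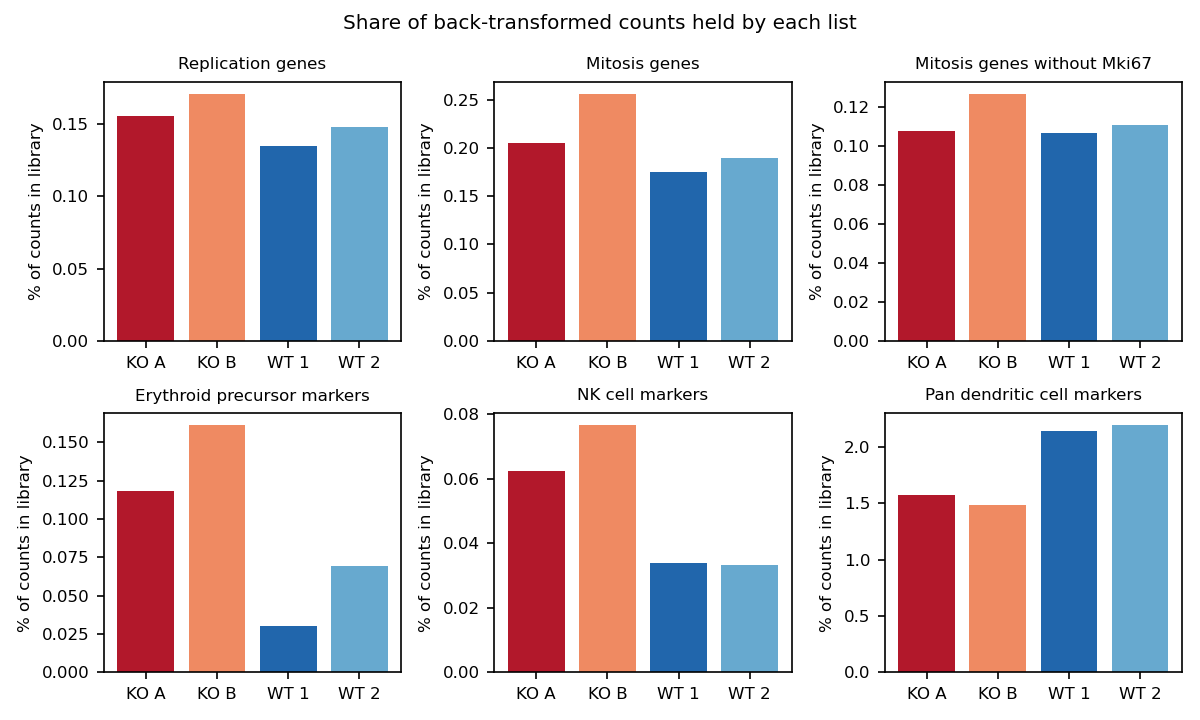
Percent of each library's back-transformed counts held by replication genes, mitosis genes with and without Mki67, and markers of erythroid precursors, NK cells and dendritic cells, with 1 bar per library, KO in reds and WT in blues. KO B has the tallest bar for the 3 division panels and for erythroid and NK markers, and the pan dendritic cell bars are lower in KO (1.57% and 1.48%) than in WT (2.14% and 2.19%).

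Among the 40 genes with a promoter window, those with an E2F core had a median difference of 0.33 (n = 17) and those without one 0.12 (n = 23). KO lay above WT in 14 of the 17 with the core and in 12 of the 23 without it, against 28.1% of all tested genes. The 17 with the core were 14 replication genes and 3 mitosis genes, so this split largely follows class. No such split was made over all tested genes. Genes with a CHR element had a median of 0.20 (n = 18) and those without one 0.21 (n = 22). For the CCAAT box the medians were 0.20 with it (n = 29, KO above WT in 18) and 0.33 without it (n = 11, KO above WT in 8). Of the 5 genes called, 4 held an E2F core, 1 held a CHR element and 1 held a CCAAT box. These are descriptions over genes, which share libraries, and neither factor binding nor its part in the differences was tested.

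Among other genes of the same machinery, the replication median was nearer 0 than in the members, and the mitosis median was close to theirs. Of 38 further replication genes 0 were higher, 1 was lower and 37 did not pass. Their median was 0.06 and 2.63% were called, against 6.93% of all tested genes. The 1 that fell was Dna2, a nuclease and helicase of the fork, with 11.83 and 11.92 in KO against 12.35 and 12.27 in WT, a fall by 0.43 (adjusted p = 0.0363). Of 55 further mitosis genes 4 rose, 1 fell and 50 did not pass, with a median of 0.17 and 44 above 0. The share called was 9.09%, against 4.55% of the mitosis members and 6.93% of all tested genes. Cks2, a small partner of CDK1, rose by 0.70 (adjusted p = 0.0199), with 817 and 964 counts in KO against 397 and 399 in WT. The condensin II gene Ncapg2, named after its values were seen, rose by 0.54 (adjusted p = 0.0482) and the condensin I gene Ncapd2 by 0.51 (adjusted p = 0.0259). Cenpa, the centromeric histone H3, rose by 0.46 (adjusted p = 0.0389). Espl1, the separase that cuts cohesin, fell by 0.60 (adjusted p = 0.0213).

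Regulators of the cycle went both ways. Of 20 tested genes for G1 cyclins, kinases, inhibitors and checkpoints, 3 rose, 1 fell and 16 did not pass. All 3 that rose encode inhibitors of cyclin-dependent kinases. Cdkn1a, or p21, was at 897 and 810 counts in KO against 208 and 424 in WT and rose by 0.85 (SE 0.161, adjusted p = 0.0359). Cdkn1b, or p27, rose by 0.43 (adjusted p = 0.0404) and Cdkn2d, or p19, by 0.45 (adjusted p = 0.0410). Ccnd1, the G1 cyclin D1, was at 12.63 and 12.22 in KO against 13.13 and 13.06 in WT and fell by 0.67 (adjusted p = 0.0422). Of 16 E2F, DREAM and FOXM1 genes 0 passed, with a median of 0.16. In that list Tfdp2, a dimer partner of E2F, differed by 0.57 (adjusted p = 0.0531) and E2f2 by 0.51 (adjusted p = 0.0567). Of 17 genes of the anaphase-promoting complex and its regulators 0 passed, and 8 of the 16 E2F, DREAM and FOXM1 genes but 1 of these 17 had an unadjusted p under 0.05. Their median was -0.05, with Fzr1 at 0.24 (adjusted p = 0.179) and Anapc10 at -0.20 (adjusted p = 0.211).

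Markers of other spleen cells moved in the same libraries. Of 16 tested erythroid precursor markers 9 rose and 0 fell, with a median of 1.18, and the list's share of counts was 0.118% (KO A) and 0.161% (KO B) in KO, against 0.0305% (WT 1) and 0.0695% (WT 2) in WT. Its libraries ran in the order WT 1, WT 2, KO A, KO B from lowest to highest. That order, chosen after the values were seen, held for 21 of the 47 division genes and 9.68% of all tested genes. Erythroid examples were Sptb, Car1 and Rhag, which rose by 1.94, 1.16 and 0.79 (adjusted p = 0.0241, 0.0319 and 0.0392, limma). NK cell markers were higher too, 10 of 12 passing and 0 lower (median 0.86), with 0.0624% and 0.0766% of counts in KO against 0.0339% and 0.0332% in WT. The smallest p-values were those of Gzmb, Gzma, Eomes and Ncr1, at 0.87, 1.16, 0.91 and 0.93 (adjusted p = 0.0147 each).

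Of 12 macrophage markers 4 rose and 0 fell (Hmox1, C1qb, C1qa and C1qc), with 0.0471% and 0.0731% of counts in KO against 0.0367% and 0.0289% in WT. Of 14 neutrophil and precursor markers Cxcr2 and Csf3r rose and 0 fell, with 0.838% and 0.806% of counts in KO against 0.772% and 0.296% in WT. Of 7 tested T cell markers Lck and Cd28 rose and 0 fell, while Cd3e, Cd3g, Themis and Bcl11b were too low to be tested, with 0.0298% and 0.0234% of counts in KO against 0.0232% and 0.0226% in WT. Of 10 tested germinal centre and plasma cell markers Jchain rose and 0 fell, with 0.0631% and 0.0690% of counts in KO against 0.0551% and 0.0546% in WT.

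Of 9 B cell markers 0 passed, the smallest adjusted p being 0.368 for Blnk and 0.563 for Ebf1, and 0 had an unadjusted p under 0.05. Of 8 tested haematopoietic progenitor markers Csf1r and Gata2 rose and Flt3 and Kit fell, with a median of -0.02. Flt3 and Csf1r are also expressed by dendritic and myeloid cells. Immediate early genes, which respond within minutes to stimulation or handling, rose in 10 of 14 and fell in 0, with a median of 1.74. They held 0.437% and 0.518% of counts in KO against 0.0711% and 0.182% in WT, with the libraries in the order of the erythroid list. Those with the smallest p were Ier2, Egr1, Nr4a1 and Junb (adjusted p = 0.0147, 0.0147, 0.0173 and 0.0182). The dendritic cell genes Dpp4, Ciita, Flt3 and Zbtb46 fell by 0.91, 0.98, 0.73 and 0.68 (adjusted p = 0.0138, 0.0147, 0.0147 and 0.0155). The part of these cell types and of handling in the division gene differences was not tested.

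The adjusted p-values (limma) of the 5 genes that rose lay between 0.0381 and 0.0482, close to the threshold. With quantile normalization Ccne1 alone of the 47 passed, and with median centring Ccne1 and Lig1. Without KO A the medians were 0.25 for replication and 0.27 for mitosis, and without KO B they were 0.21 and 0.12. Without KO A 0 of the 47 and 0 of all tested genes passed in limma, where 25 and 2508 had an unadjusted p under 0.05. Leaving out KO B gave 0 of the 47 and 3 of all tested genes past the threshold, where 12 and 2448 had an unadjusted p under 0.05. Without WT 1, 0 of the 47 passed (12 had an unadjusted p under 0.05) while 646 genes in all did, and without WT 2 the count was 5, of which Lig1 and Mki67 were shared with the 5 found in all libraries.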

How the data were processed

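The table holds log2 values on a variance-stabilized scale, which the authors made and scaled between libraries before they deposited it. The tools Salmon 1.10.1 and DESeq2 and the build GRCm39 stand in the submitters' processing notes, which give them no role. Per the labels' protocols, libraries came from total RNA with a stranded kit for very small inputs. How genes were annotated and filtered is not given in the sources used here. KO columns carry other numbers than the KO titles, so they were taken as the KO group only.

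Normalized counts were recovered by undoing the transform from the shared lowest value (8.04). Since low values are compressed, the log2 scale understates folds of low genes, and ratios of counts stand beside some differences. Symbols came from GENCODE M21 (17289 of 17300 identifiers matched), and promoters from RefSeq, both of an older build than the authors' and used by name.

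The 11864 genes with a mean 1 log2 unit or more above that value were fitted in limma 3.58.1 under R 4.3.3, with an intensity trend, two-sided, Benjamini-Hochberg adjusted, threshold 0.05, with 6.48 total degrees of freedom. Without the trend 780 genes passed in place of 822. The script was tested on simulated data. The members and lists were chosen with earlier results of these data known, so no list was tested. All 47 members could be named; from other lists, at most 4 genes past the threshold by smallest p, or the 2 smallest where none passed; some genes that the rule would name are not reported here. Alternatives were other filters, quantile normalization, median centring, log2 of the count plus 1, no trend, and leaving out each library.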

Additional observations from a re-analysis of the deposited data

How the results depend on the processing

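No paired analysis was possible because the KO columns carry numbers that no KO title has. Among the 47 genes, every alternative that kept all libraries left the medians above 0 in both classes, between 0.17 and 0.28. The filter of 2 log2 units tested 36 of the 47 and removed Ccne1 and Rfc4, while Cdt1, Lig1 and Mki67 still passed. The replication median was 0.28 with log2 of the count plus 1, in place of 0.21. The count of replication genes past the threshold was 4, and 2 with the filter of 2 log2 units, 2 with median centring and 1 with quantile normalization. The count of mitosis genes was 1, and 0 with quantile normalization, median centring, log2 of the count plus 1 and without the trend. These 0 calls were Mki67 missing the threshold in limma. With all libraries and the deposited scaling, 6 mitosis genes (27.3%) had an unadjusted p under 0.05, near the 24.7% of all tested genes. Quantile normalization gave 366 higher and 282 lower genes over all, a higher share of 56.5% instead of 67.8%. Leaving out each library in turn gave 0 to 820 genes in all, 0 to 4 replication genes and 0 to 1 mitosis genes. Replication medians were then 0.21 to 0.28 and mitosis medians 0.12 to 0.27. Each of these fits had fewer libraries, and the cause of these ranges was not tested. Cdc45 turned to -0.04 with quantile normalization and to -0.02 with median centring. Other changes of sign came only from leaving out a library, in genes that passed the threshold under none of these settings. Over those settings Cdc45 ranged from -0.18 to 0.19, Mcm3 from -0.00 to 0.10, Gins1 from -0.05 to 0.10, Prim1 from -0.11 to 0.08, Tyms from -0.05 to 0.15 and Mad2l1 from -0.00 to 0.17. Aurkb ranged from -0.13 to 0.03, Tpx2 from -0.09 to 0.22, Nusap1 from -0.05 to 0.28, Ckap2 from -0.06 to 0.15 and Cenpe from -0.15 to 0.26. Depth in reads is not known from this table, so no limit from depth can be given.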
